A study of Mus musculus with 42 samples.

Results

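The TRIM genes are a family of ubiquitin ligases, taken here as every gene of a count table whose symbol starts with Trim followed by a digit. Of 11160 genes in the table, 39 met that rule. They were measured by RNA sequencing of mouse bone marrow-derived macrophages, which are macrophages grown from bone marrow with the growth factor M-CSF, then detached, replated and used the following day. Cells were MS4A4A KO or WT, and those of each genotype received 1 µM dexamethasone (Dex, a synthetic glucocorticoid) or vehicle for 2, 8 or 24 h, or were left untreated as a baseline. This gives 14 groups of 3 libraries, 42 in all. Nothing in the labels ties the 3 libraries of a group to distinct cultures or mice, and p-values therefore cover the library-to-library spread alone, which may be technical.

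Most TRIM proteins have a RING finger, which carries the ligase activity, followed by B-boxes and a coiled coil, and many end in a domain that binds the substrate. Many members with a PRY-SPRY end are induced by interferon and act in macrophages against viruses, either by binding viral particles or by modifying the relays that sense nucleic acids. Others repress transcription on chromatin, carry NHL repeats, bind microtubules or help autophagy clear damaged membranes.

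The 42 libraries held 10140200 to 33528400 counts (median 27998700), and TRIM transcripts made up 0.117 to 0.199% of them. The total count of a member over all libraries was between 2345 and 314673 (median 25941), the lowest count of any member in any library was 9, and all 39 members passed the filter on low counts. All 8 macrophage markers examined were above 0 in every library, and their sum was 18027 to 42243 CPM, a count scaled to the size of its library. Of markers of other cell types, S100a8, S100a9, Cd79b, Zbtb46, Col1a1, Col1a2, Col3a1 and Sparc were also above 0 in every library. The 3 measured neutrophil markers (of 6 listed) summed to 9.48 to 63.6 CPM. Ms4a4a was at 66.5 to 802 CPM in KO libraries with Dex, against 104 to 1683 CPM in WT libraries with Dex. Without Dex it was at 24.2 to 179 CPM in KO libraries and at 67.0 to 213 CPM in WT libraries. KO libraries lay below WT libraries in each condition except vehicle at 24 h, where the groups overlapped, and which part of the gene was deleted is not given in the sources used here. Fkbp5, a standard glucocorticoid target, was at 298 to 1156 CPM in Dex libraries and at 10.9 to 69.9 CPM in the others. The value of 69.9 CPM belongs to replicate 2 of the KO vehicle 24 h group, which stood apart from the other 5 vehicle libraries of that time (12.4 to 19.0 CPM). The overlap of Ms4a4a came from this library too, at 179 CPM against 93.0 and 53.5 CPM in replicates 1 and 3 of its group. Tsc22d3, at 1577 to 2736 CPM in Dex libraries, was at 529 CPM in this library. It was at 311 CPM in KO and 360 CPM in WT vehicle 24 h replicate 1, and at 187 to 229 CPM in the remaining vehicle libraries of that time. Counts at 24 h and the 24 h fold changes of the members described in most detail are given with and without the KO vehicle 24 h replicate 2.

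Per kilobase of exon, Trim35, a ligase of the PRY-SPRY type, and Trim25, which modifies the RNA sensor RIG-I, had the highest levels of the family. Trim35 averaged 49.1 ± 9.33 CPM per kb and Trim25 averaged 48.3 ± 9.76 CPM per kb (SD over 42 libraries), so these neighbours in the order did not differ beyond their spread. Trim30a, a mouse brake on Toll-like receptor signalling, followed at 35.5 ± 18.2 CPM per kb with a range of 15.7 to 76.5 CPM per kb, the widest relative to its mean of these 3 members. In untreated WT cells the order was different, with Trim30a at 62.8 ± 3.69, Trim25 at 56.5 ± 3.35 and Trim35 at 49.6 ± 1.78 CPM per kb (SD, n = 3). The lowest of the 39 were Trim6 at 0.420, Trim45 at 0.353 and Trim7 at 0.277 CPM per kb.

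Dex changed 9 of 39 members at 2 h, 22 at 8 h and 24 at 24 h. These counts are from edgeR's quasi-likelihood test with Benjamini-Hochberg adjustment over all 11160 genes, at an adjusted p of at most 0.05 for the mean of both genotypes. Of all genes tested, 14.5% were called at 2 h, 52.2% at 8 h and 53.6% at 24 h, so the shares of members at 8 and 24 h were near the background. At 2 h 6 members rose and 3 fell (background 8.14% higher and 6.41% lower), at 8 h 13 rose and 9 fell (27.5% and 24.7%), and at 24 h 11 rose and 13 fell (26.8% each). The median log2 fold change over the members was 0.02, 0.00 and -0.06 at the 3 times, against 0.00, 0.01 and 0.01 over all genes. Trim2, Trim3, Trim11 and Trim26 rose at all 3 times, Trim16 and Trim36 fell at all 3, and Trim25 and Trim35 moved in opposite directions at different times. Another 11 members were called at none of them. Without the KO vehicle 24 h replicate 2, the 24 h count was 20 members, 8 higher and 12 lower.

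Cells that received vehicle also differed from untreated cells, and here most changes of the family were decreases. Untreated cells were taken at baseline only, so vehicle, handling and time in culture cannot be told apart in this comparison. At 2 h 3 members rose and 12 fell against a background of 7.03% higher and 6.72% lower (13.8% called in all). At 8 h 2 rose and 12 fell (background 8.49% and 9.66%, 18.2% in all), and at 24 h 5 rose and 14 fell (15.6% and 15.4%, 31% in all), by edgeR's quasi-likelihood test. Without the KO vehicle 24 h replicate 2, the 24 h count was 3 higher and 15 lower. No member rose at one vehicle time and fell at another. The vehicle groups serve both as the control of Dex and as the later time points of this comparison, so the Dex and vehicle contrasts share libraries. The plot of fold changes by role shows both sets of contrasts for all 39 members.

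**Figure D1:**
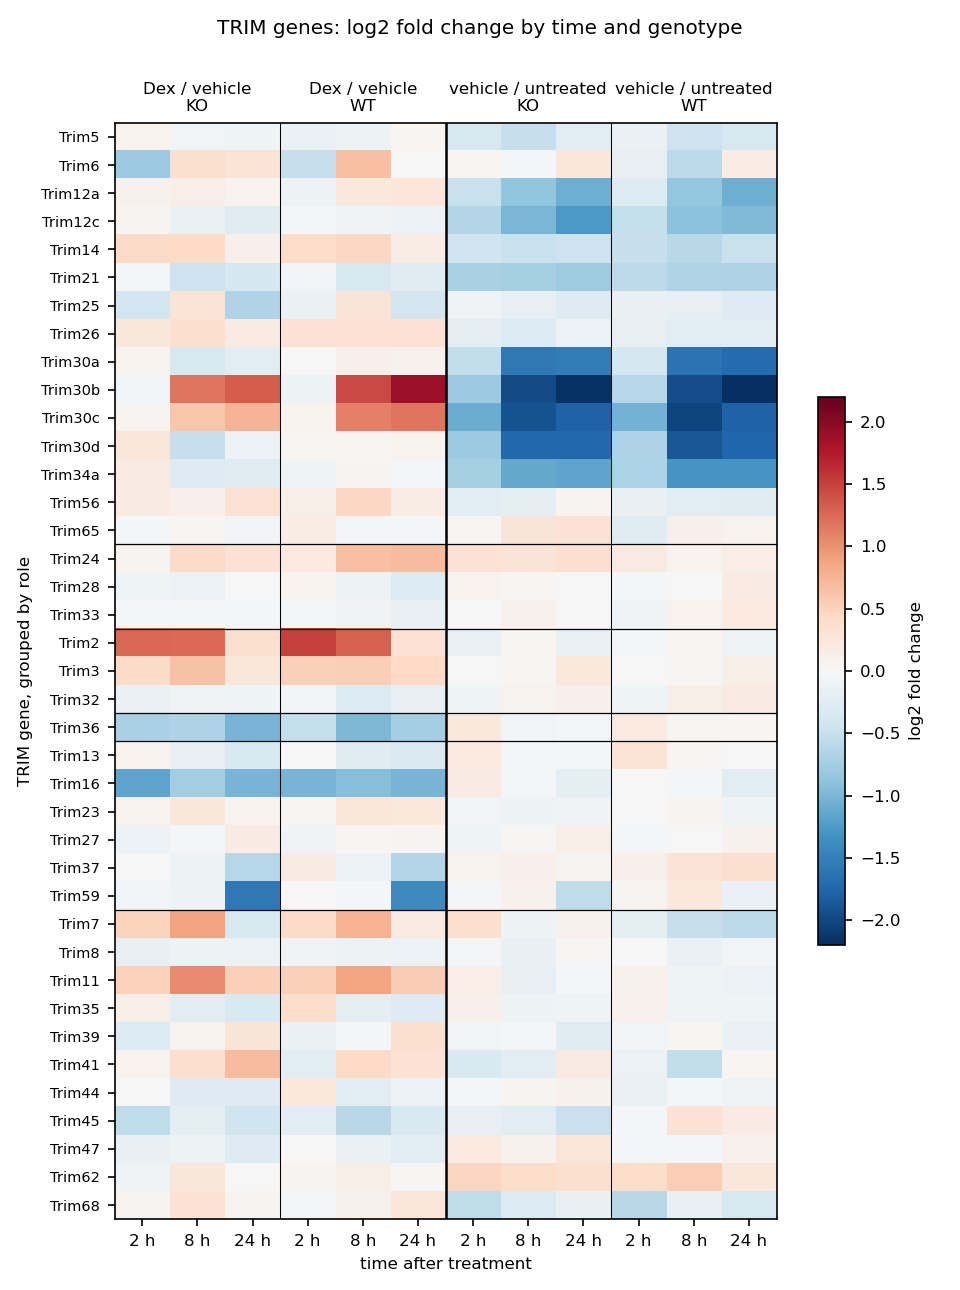
Log2 fold changes of the 39 TRIM genes (rows, grouped by role) for Dex over vehicle and for vehicle over untreated cells (columns, in KO and in WT cells at 2, 8 and 24 h). Colour runs over the log2 scale. The antiviral rows are mostly negative in the vehicle columns, where 11 to 12 of 15 were called lower for the mean of the genotypes, while the Dex columns hold both signs.

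The antiviral and interferon-signalling members carried most of the decrease in vehicle cells. Of 15 measured, 11 fell at 2 h, 11 at 8 h and 12 at 24 h (background 6.72, 9.66 and 15.4% lower), and none rose. Their median log2 fold change was -0.46, -0.70 and -0.73, against medians over all 39 members of -0.08, -0.10 and -0.10. The list was drawn up with earlier results of these data known, so its count is a description. The 11 that fell at all 3 times were Trim5, Trim12a, Trim12c, Trim14, Trim21, Trim26, Trim30a, Trim30b, Trim30c, Trim30d and Trim34a. Interferon-stimulated genes moved in the same comparison: of 24 measured, 20 fell at 2 h, 24 at 8 h and 24 at 24 h, with medians of -0.61, -2.07 and -2.61. In bulk RNA, fewer cells of a type and less RNA per cell cannot be told apart.

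Of these 11 members, 8 lie in a run of 9 TRIM genes on mouse chromosome 7. The run spans 289.1 kb from 104218793 to 104507849 (GRCm38, GENCODE annotation), with gaps under 50 kb, and holds Trim6, Trim34a, Trim5, Trim12a, Trim12c, Trim30b, Trim30c, Trim30a and Trim30d, all protein-coding. In vehicle cells 8 of the 9 fell at each time (background 6.72, 9.66 and 15.4% lower), with median log2 fold changes of -0.59, -1.22 and -1.23. The exception was Trim6, whose fold changes of -0.06, -0.31 and 0.20 were not called. Trim34b lies in the same interval and was not analysed here.

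Promoter sequence was examined because these members moved together. RefSeq windows (GRCm38.p6, from 250 bases before to 50 after the annotated start) matched 30 of the 39 members, with 40 windows in all. The interferon-stimulated response element, a sequence found at many interferon-induced genes, was searched as GAAA, any 2 bases and GAAA on both strands (reverse TTTC, any 2 bases and TTTC, overlapping matches counted). It was found in 9 of the 30 members, against 3.99% of 27025 genes with a window, and in 25.0% of the members' windows, against 3.44% of 32851 windows. A match describes letters in a window and not a bound site. Several members with a match are neighbouring copies on chromosome 7 with alike windows, so these shares do not count independent genes. Stretches around the matches are printed 5′ to 3′ on the gene's strand, with matches in capitals, for members outside the Trim30 group.
Trim21 (chr7:102565434-102565489, minus strand): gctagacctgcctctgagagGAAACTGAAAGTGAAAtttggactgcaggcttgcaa
Trim34a (chr7:104244447-104244496, plus strand): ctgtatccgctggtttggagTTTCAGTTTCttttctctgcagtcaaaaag
Trim5 (chr7:104288126-104288175, minus strand): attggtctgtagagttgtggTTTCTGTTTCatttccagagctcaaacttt
Trim12a (chr7:104315456-104315505, minus strand): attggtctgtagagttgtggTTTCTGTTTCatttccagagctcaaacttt
Trim12c (chr7:104353349-104353398, minus strand): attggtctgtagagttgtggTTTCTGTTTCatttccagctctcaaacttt
Trim26 (chr17:36836966-36837021, plus strand): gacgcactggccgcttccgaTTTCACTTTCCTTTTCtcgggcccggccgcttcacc
Trim2 (chr3:84212789-84212830, minus strand): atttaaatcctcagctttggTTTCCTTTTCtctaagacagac

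The stretches of Trim5 and Trim12a were identical over 50 bases, and that of Trim12c differed from them at 2 bases. Trim21 and Trim26 each held a pair of overlapping matches. The matches began 14 and 20 bases after the start in Trim21, 11 bases after it in Trim34a and Trim12a and 29 bases after it in Trim2. They began 29 to 49 bases before it in Trim12c, Trim5, Trim30d and the printed window of Trim30a, and 160 and 154 bases before it in Trim26. A second RefSeq start of Trim30a, whose window is not printed, had a match 3 bases after it. Of the 9 members with a match, 8 fell at all 3 vehicle times, and Trim2 did not. Trim5, Trim12a, Trim12c, Trim30a, Trim30d and Trim34a of these lie in the chromosome 7 run and are not independent of each other. The RefSeq start of Trim2 lies inside its GENCODE gene (84160439 to 84306877). The second start of Trim30a lies inside its gene too (104409025 to 104465193). Either window may therefore not be the start used in these cells. Of 21 members with a window and no match, 2 fell at all 3 times (Trim30b and Trim30c), and of 9 members without a window 1 did (Trim14). Of all genes, 6.72, 9.66 and 15.4% fell with vehicle at 2, 8 and 24 h. The share of all genes that fell at all 3 times was not computed, nor was that among all genes with a match. Matches were set against calls after the members were seen to move together, and the part of a match in these changes was not tested.

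The Trim30 genes are tandem copies, and their start windows are printed because Trim30b and Trim30c moved apart from Trim30a and Trim30d under Dex. Capitals mark the match.
Trim30a (chr7:104465144-104465443, minus strand): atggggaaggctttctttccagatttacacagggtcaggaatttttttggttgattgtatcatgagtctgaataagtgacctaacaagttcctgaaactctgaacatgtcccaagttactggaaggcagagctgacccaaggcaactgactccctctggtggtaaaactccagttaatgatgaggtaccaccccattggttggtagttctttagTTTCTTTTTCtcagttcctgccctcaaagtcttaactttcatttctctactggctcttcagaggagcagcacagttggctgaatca
Trim30d (chr7:104507800-104508099, minus strand): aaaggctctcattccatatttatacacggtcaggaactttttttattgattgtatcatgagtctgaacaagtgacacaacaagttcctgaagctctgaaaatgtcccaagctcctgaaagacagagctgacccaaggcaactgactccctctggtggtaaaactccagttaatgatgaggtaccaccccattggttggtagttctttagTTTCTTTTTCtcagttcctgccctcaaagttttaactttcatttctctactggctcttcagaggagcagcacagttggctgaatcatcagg
Trim30b (chr7:104358597-104358896, minus strand): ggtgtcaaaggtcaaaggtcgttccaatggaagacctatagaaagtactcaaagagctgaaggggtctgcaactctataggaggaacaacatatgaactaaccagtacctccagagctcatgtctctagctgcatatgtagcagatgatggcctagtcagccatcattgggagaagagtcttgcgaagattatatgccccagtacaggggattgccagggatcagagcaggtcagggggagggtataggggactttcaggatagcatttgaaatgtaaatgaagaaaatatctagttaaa
Trim30c (chr7:104400729-104401028, minus strand): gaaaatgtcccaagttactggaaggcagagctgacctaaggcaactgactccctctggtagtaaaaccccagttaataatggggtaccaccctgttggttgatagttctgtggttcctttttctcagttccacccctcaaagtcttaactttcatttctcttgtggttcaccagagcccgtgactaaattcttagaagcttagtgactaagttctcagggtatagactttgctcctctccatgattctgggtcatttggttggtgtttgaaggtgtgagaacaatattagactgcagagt

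In local alignments the window of Trim30d was identical to that of Trim30a at 276 of 294 aligned bases, and both held TTTCTTTTTC. The window of Trim30c was identical to that of Trim30a at 157 of 176 aligned bases, shifted along the gene, and at the place of the match it read TTCCTTTTTC, a T3C difference counted from 1 at the 5′ end of the Trim30a match. The window of Trim30b aligned with that of Trim30a over 17 bases only, outside the match. The RefSeq start of Trim30b lies inside the GENCODE gene (104355382 to 104369884), so this window may not be the start used in these cells.

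Trim30a had 173, 207 and 211 CPM (lowest, median and highest of 6 libraries) in vehicle cells at 2 h, 64.5, 86.9 and 130 CPM at 8 h, then 69.5, 85.2 and 112 CPM at 24 h, against 242, 266 and 315 CPM in untreated cells. No vehicle library reached the lowest untreated library. The log2 fold changes of Trim30a were -0.46 ± 0.11 at 2 h (SE, edgeR adjusted p = 0.00295), -1.59 ± 0.11 at 8 h (adjusted p = 4.8e-13) and -1.61 ± 0.11 at 24 h (adjusted p = 1.12e-13). Trim30d had 37.1, 43.9 and 46.6 CPM in vehicle cells at 2 h, 13.9, 18.6 and 35.0 CPM at 8 h, then 16.0, 21.98 and 26.1 CPM at 24 h, against 63.8, 71.8 and 83.2 CPM in untreated cells. Its groups did not overlap either, and it fell by 0.74 ± 0.12, 1.81 ± 0.13 and 1.74 ± 0.13 on the log2 scale (edgeR adjusted p = 4.27e-05, 4.8e-13 and 3.75e-13). Trim30b was lower at 1.34, 1.60 and 2.72 CPM in vehicle cells at 24 h, against 5.76, 8.36 and 10.0 CPM in untreated cells. Its change of -2.22 ± 0.18 was the most negative of the 39 members in this comparison (edgeR adjusted p = 4.5e-12), and it was -2.41 without the KO vehicle 24 h replicate 2. Trim30c, at 2.63, 4.90 and 6.00 CPM in vehicle cells at 24 h and 13.8, 14.8 and 18.5 CPM in untreated cells, changed by -1.78 ± 0.20 (edgeR adjusted p = 9.9e-09).

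Trim12a is a mouse relative of primate TRIM5, which binds retroviral capsids. It had 26.9, 31.0 and 32.0 CPM in vehicle cells at 2 h, 17.6, 22.2 and 25.8 CPM at 8 h, then 15.0, 19.2 and 22.2 CPM at 24 h, against 34.3, 40.4 and 46.8 CPM in untreated cells. It fell by 0.40 ± 0.08, 0.86 ± 0.08 and 1.07 ± 0.09 on the log2 scale (edgeR adjusted p = 0.000893, 1.09e-09 and 4.48e-12), and all vehicle libraries lay below all untreated ones. Trim34a, a relative of human TRIM34, had 38.5, 42.5 and 48.6 CPM in vehicle cells at 2 h, 22.4, 29.9 and 43.2 CPM at 8 h, then 26.8, 29.95 and 35.2 CPM at 24 h, against 65.05, 71.1 and 76.7 CPM in untreated cells. Its log2 fold changes were -0.71 ± 0.11, -1.22 ± 0.11 and -1.23 ± 0.11 (edgeR adjusted p = 1.33e-05, 1.47e-10 and 6.42e-11), again with no overlap. Trim5, the namesake of the restriction factor, moved least among the 8 members of the run that fell, by 0.25 ± 0.08, 0.48 ± 0.09 and 0.29 ± 0.09 on the log2 scale (edgeR adjusted p = 0.0467, 8.61e-05 and 0.00865). Its 2 h call was lost in 8 of 12 fits that each left out 1 library (range -0.31 to -0.17), and its 24 h call was lost without the KO untreated replicate 1 (-0.22). Both Trim5 calls were also lost in a fit of the compared libraries alone (edgeR adjusted p = 0.153 at 2 h and 0.0503 at 24 h). Reads of close copies may have been split between them in the authors' counting, which was not tested. Summed over Trim12a and Trim12c the changes were -0.50, -0.90 and -1.09, and summed over Trim30a to Trim30d they were -0.54, -1.65 and -1.65.

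Outside the run, Trim21, a cytosolic antibody receptor that sends antibody-coated virus to the proteasome, fell early. It had 33.0, 34.9 and 41.6 CPM in vehicle cells at 2 h, against 49.7, 53.9 and 64.6 CPM in untreated cells. The groups did not overlap, and the log2 fold change was -0.64 ± 0.08 (edgeR adjusted p = 3.29e-07), followed by -0.70 at 8 h and -0.73 at 24 h. Trim14, which works with the antiviral adaptor MAVS, had 34.9, 36.9 and 40.0 CPM in vehicle cells at 2 h and 47.0, 53.2 and 55.2 CPM in untreated cells, a change of -0.47 ± 0.07 (edgeR adjusted p = 1.18e-05) that was -0.55 at 8 h and -0.47 at 24 h. Part of Trim14 overlaps exons of Nans on the opposite strand (1356 bases), and the strand setting of the counting was not known. Trim26, which acts on the interferon factor IRF3, changed by -0.19, -0.27 and -0.18 (edgeR adjusted p = 0.00385, 5.36e-05 and 0.00361). In a fit of the compared libraries alone, the 2 h call of Trim26 was lost (adjusted p = 0.0568). Trim25 fell at 24 h only by the test, with a change of -0.29 ± 0.08 (edgeR adjusted p = 0.0042). Trim6, Trim56 and Trim65 were called at no vehicle time.

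**Figure D2:**
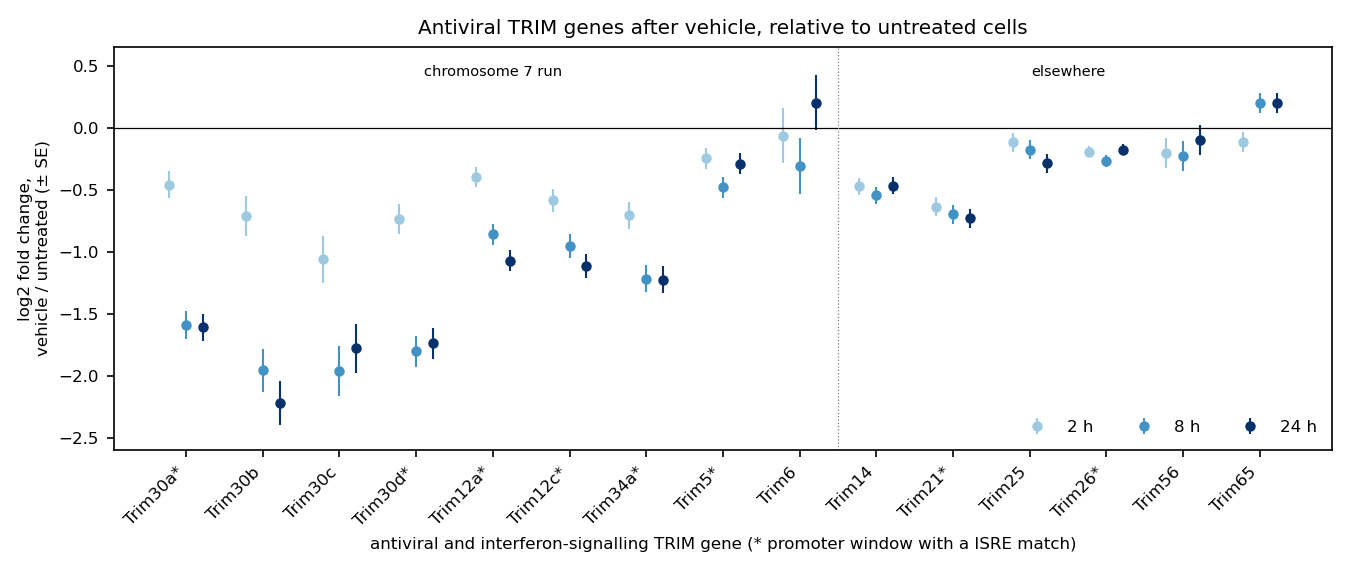
Log2 fold change ± SE of the 15 antiviral TRIM genes in vehicle over untreated cells at 2, 8 and 24 h (mean of KO and WT, 6 vehicle and 6 untreated libraries a time). Genes left of the dotted line form the chromosome 7 run, and an asterisk marks a response-element match in a start window. Trim30a, Trim30b, Trim30c and Trim30d reach -1.6 to -2.2 at 24 h, and Trim6, at -0.06, -0.31 and 0.20, was not called.

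Without the KO vehicle 24 h replicate 2, the 24 h changes in vehicle cells were -1.65 for Trim30a, -1.78 for Trim30d, -1.85 for Trim30c, -1.04 for Trim12a, -1.18 for Trim12c, -1.23 for Trim34a and 0.32 for Trim62, all still called.

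Of the members outside the antiviral group, Trim68 fell at 2 h. It had 3.66, 4.51 and 4.33 CPM in KO vehicle libraries at 2 h and 3.70, 4.47 and 4.55 CPM in WT vehicle libraries, against 6.75, 6.26 and 5.5004 CPM in KO untreated libraries and 6.13, 6.10 and 7.38 CPM in WT untreated libraries. All 6 vehicle libraries lay below all 6 untreated ones, and the log2 fold change was -0.59 ± 0.09 (edgeR adjusted p = 2.15e-05), against -0.23 at 8 h (adjusted p = 0.0706) and -0.25 at 24 h (adjusted p = 0.0323). The 24 h call of Trim68 was lost in 6 of 12 fits without 1 library, with a range of -0.31 to -0.19. Trim62, which modifies the adaptor CARD9, was the one member that rose at all 3 vehicle times. Its levels were 10.8, 12.0 and 13.1 CPM in vehicle cells at 2 h and 11.0, 11.8 and 13.9 CPM at 8 h, against 6.68, 8.94 and 11.1 CPM in untreated cells. The ranges overlapped slightly, and the changes were 0.44 ± 0.11 at 2 h, 0.47 ± 0.11 at 8 h and 0.30 ± 0.11 at 24 h (edgeR adjusted p = 0.00357, 0.0015 and 0.0295), the last of which was lost without any of 4 libraries, which were replicate 1 of both untreated groups and replicate 3 of both vehicle 24 h groups (0.19 to 0.40). The 24 h calls of Trim62 and Trim68 were also lost in a fit of the compared libraries alone (edgeR adjusted p = 0.159 and 0.113).

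Under Dex, antiviral TRIM members moved both ways. Of 15, 2 rose and 1 fell at 2 h, 6 rose and 1 fell at 8 h, and 3 rose and 2 fell at 24 h, with median log2 fold changes of 0.04, 0.18 and -0.02. Of all genes, 8.14, 27.5 and 26.8% rose and 6.41, 24.7 and 26.8% fell at these times. Of the 24 interferon-stimulated genes, 1 rose and 0 fell at 2 h, 1 rose and 13 fell at 8 h, and 1 rose and 20 fell at 24 h, with medians of 0.06, -0.43 and -0.79. The gene that rose at each time was Samhd1, which depletes nucleotides needed by retroviruses (log2 fold change 0.35, 1.47 and 1.29). Trim30a (0.04, -0.12 and -0.08), Trim30d (0.15, -0.24 and -0.03), Trim12a (0.00, 0.18 and 0.17), Trim12c (0.02, -0.11 and -0.20), Trim34a (0.05, -0.11 and -0.15) and Trim5 (-0.03, -0.09 and -0.02) were called at no Dex time. At 8 h the call for Trim30a depended on 1 library: without the KO vehicle 8 h replicate 2 it was -0.24 (edgeR adjusted p = 0.0356), and without the KO vehicle 8 h replicate 3 it was 0.01.

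Trim30b and Trim30c were the 2 members of the chromosome 7 run that rose under Dex. Trim30b had 3.54, 4.76 and 5.99 CPM in Dex cells at 2 h, against 3.63, 5.33 and 5.87 CPM in vehicle cells, and the groups overlapped almost fully. At 8 h it had 4.31, 5.07 and 6.00 CPM in Dex cells, against 1.40, 2.17 and 2.83 CPM in vehicle cells. At 24 h it had 4.52, 5.08 and 6.46 CPM in Dex cells, against 1.34, 1.60 and 2.72 CPM in vehicle cells. At both later times every Dex library lay above every vehicle library, and the level in Dex cells was close to its own 2 h level. The log2 fold changes of Trim30b were -0.09 ± 0.16 at 2 h (edgeR adjusted p = 0.87), 1.32 ± 0.17 at 8 h (adjusted p = 7.18e-08, 2.49-fold) and 1.61 ± 0.18 at 24 h (adjusted p = 1.92e-09, 3.06-fold). The Dex effect at 8 h exceeded that at 2 h by 1.41 ± 0.24 (edgeR adjusted p = 2.01e-05). In KO cells the values were 1.18 at 8 h and 1.33 at 24 h, against 1.46 and 1.90 in WT cells. Without the KO vehicle 24 h replicate 2, the 24 h value was 1.79.

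Trim30c followed the same course at higher levels. It had 6.54, 7.71 and 9.19 CPM in Dex cells at 2 h, against 5.98, 6.81 and 9.55 CPM in vehicle cells. At 8 h it had 5.80, 7.16 and 9.06 CPM in Dex cells, against 2.07, 3.903 and 6.73 CPM in vehicle cells, and at 24 h 6.90, 8.75 and 10.8 CPM in Dex cells, against 2.63, 4.90 and 6.00 CPM in vehicle cells. The groups overlapped at 8 h and not at 24 h. The log2 fold changes of Trim30c were 0.06 ± 0.19, 0.86 ± 0.20 and 0.97 ± 0.20 (edgeR adjusted p = 0.93, 0.000509 and 0.00011), and 1.03 at 24 h without the KO vehicle 24 h replicate 2. The change in KO cells alone at 8 h was 0.61 ± 0.28 (edgeR adjusted p = 0.0873).

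To set the copies against each other within a library, the ratio of Trim30b plus Trim30c to Trim30a plus Trim30d was also taken, a measure chosen after the values were seen. Its log2 value averaged -4.35 in Dex cells (range -4.49 to -4.21) and -4.31 in vehicle cells (range -4.46 to -4.05) at 2 h. At 8 h it averaged -3.02 in Dex cells (-3.24 to -2.74) and -4.21 in vehicle cells (-4.38 to -4.11), and at 24 h -2.91 in Dex cells (-3.14 to -2.57) and -4.20 in vehicle cells (-4.65 to -4.04). The ranges overlapped at 2 h and were apart at 8 and 24 h. Since the copies were paired by how they had moved, no test is given. Summed over Trim30a to Trim30d the Dex changes were 0.06, -0.08 and 0.03 (edgeR adjusted p = 0.877, 0.581 and 0.846), since Trim30a and Trim30d hold most of the counts. How the authors' estimates split reads between the copies was not tested.

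**Figure D3:**
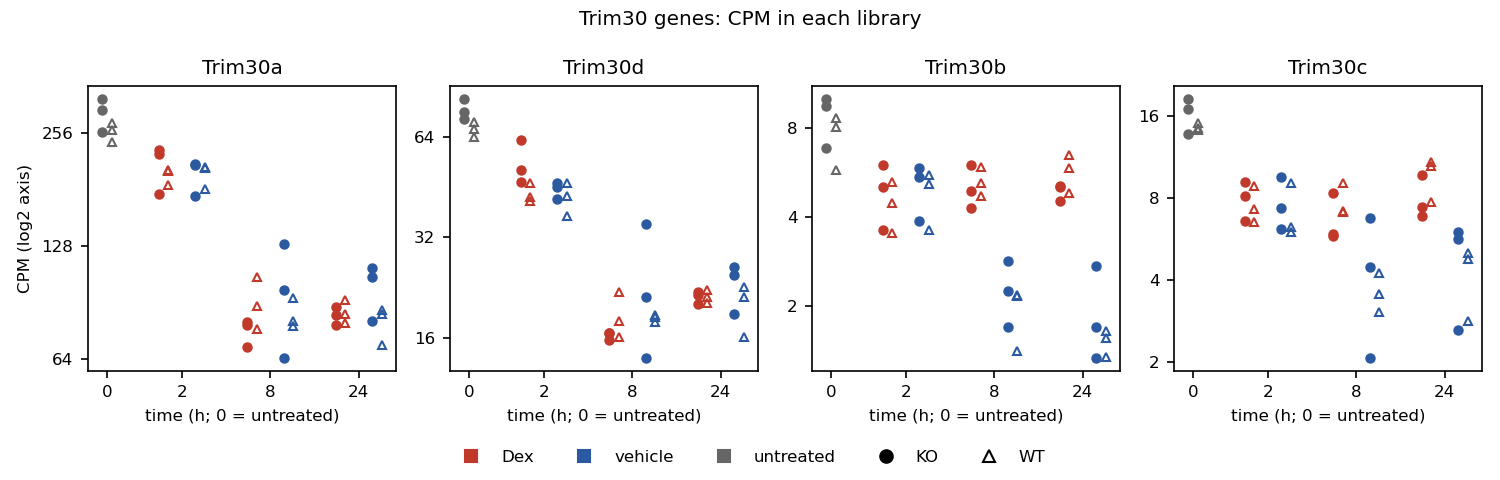
CPM of Trim30a, Trim30d, Trim30b and Trim30c in each library on a log2 axis by time, with Dex left of vehicle and untreated cells at 0 h (circles KO, triangles WT). At 8 and 24 h Trim30a and Trim30d are low with and without Dex, while Trim30b is 4.31 to 6.46 CPM in Dex libraries and 1.34 to 2.83 CPM in vehicle libraries.

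Trim25 changed direction with time. It had 188, 252 and 272 CPM in Dex cells at 2 h, against 282, 293 and 331 CPM in vehicle cells, 314, 336 and 400 CPM in Dex cells at 8 h, against 241, 288 and 314 CPM in vehicle cells, and 146, 186 and 220 CPM in Dex cells at 24 h, against 248, 262 and 286 CPM in vehicle cells. Dex libraries lay below vehicle libraries at 2 and 24 h, and at 8 h they lay just above them (lowest Dex library 314.4 CPM, highest vehicle library 313.8 CPM). The log2 fold changes were -0.28 ± 0.08, 0.29 ± 0.08 and -0.54 ± 0.08 (edgeR adjusted p = 0.00814, 0.00179 and 4.05e-07). The steps between times were called too, with 0.57 ± 0.11 between 2 and 8 h and -0.83 ± 0.11 between 8 and 24 h (edgeR adjusted p = 0.0001 and 3.61e-07). Across the family, 9 members had a Dex effect at 8 h that differed from that at 2 h (6 higher, 3 lower, background 31%), and 8 had one at 24 h that differed from that at 8 h, all lower (background 25.9%, with 9.92% higher and 16% lower). In WT cells alone the 2 h change of Trim25 was -0.15 (edgeR adjusted p = 0.47).

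Among the other antiviral members, Trim14 rose by 0.41 at 2 h (47.1 to 55.6 CPM in Dex cells, 34.9 to 40.0 CPM in vehicle cells, no overlap) and by 0.45 at 8 h on the log2 scale, and its 24 h change of 0.13 was not called (edgeR adjusted p = 3.25e-05, 1.83e-06 and 0.122). Trim26 rose by 0.28, 0.34 and 0.25 (edgeR adjusted p = 1.62e-05, 1.31e-07 and 2.68e-05), with 60.8 to 64.6 CPM in Dex cells and 47.2 to 53.5 CPM in vehicle cells at 8 h. Trim21 had 24.9 to 27.5 CPM in Dex cells and 27.8 to 41.3 CPM in vehicle cells at 8 h, and its changes were -0.05, -0.40 and -0.32 (edgeR adjusted p = 0.848, 5.08e-05 and 0.000719). Trim14, Trim21 and Trim26 all lay below untreated cells with vehicle, so Dex was accompanied by higher levels of Trim14 and Trim26 and by still lower levels of Trim21. Trim56, which aids sensing of nucleic acids, changed by 0.28 ± 0.12 at 8 h (edgeR adjusted p = 0.0448), a call lost in 9 of 12 fits without 1 library (0.25 to 0.32), under RLE scaling (adjusted p = 0.0582) and in DESeq2 (adjusted p = 0.0517). Trim6 changed by -0.65 ± 0.23 at 2 h and 0.51 ± 0.22 at 8 h, neither called, while the step between them of 1.15 ± 0.32 was called (edgeR adjusted p = 0.0529, 0.0537 and 0.00518).

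Of the 3 measured NHL-repeat members, 2 rose at each Dex time (background 8.14, 27.5 and 26.8% higher). Trim2, which ubiquitinates neurofilament light chain in neurons (chromosome 3, 84160439 to 84306877), made the largest early change of the family. It had 17.1, 20.3 and 28.1 CPM in Dex cells at 2 h, against 6.94, 8.27 and 9.78 CPM in vehicle cells, and 20.4, 22.1 and 22.9 CPM in Dex cells at 8 h, against 7.93, 9.04 and 10.5 CPM in vehicle cells. At 24 h it had 8.88, 9.47 and 12.0 CPM in Dex cells, against 6.47, 7.93 and 9.72 CPM in vehicle cells. The groups were far apart at 2 and 8 h and overlapped at 24 h. Trim2 changed by 1.38 ± 0.11 at 2 h (edgeR adjusted p = 1.14e-11, 2.603-fold), 1.27 ± 0.11 at 8 h (adjusted p = 1.99e-11, 2.41-fold) and 0.33 ± 0.12 at 24 h (adjusted p = 0.0181). The 24 h effect minus the 8 h effect was -0.94 ± 0.16 (edgeR adjusted p = 4.07e-05). The 24 h call was lost without KO Dex replicate 2, KO vehicle replicate 2 (0.30, edgeR adjusted p = 0.0508), WT Dex replicate 1 or WT vehicle replicate 3 of that time (range 0.25 to 0.41).

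Trim3, a brain-enriched relative of Trim2 (chromosome 7, 105604463 to 105633571), rose less and kept its rise. It had 28.7, 32.3 and 37.5 CPM in Dex cells at 2 h, against 21.4, 23.5 and 24.7 CPM in vehicle cells, 34.7, 36.0 and 39.4 CPM in Dex cells at 8 h, against 22.9, 23.8 and 25.7 CPM in vehicle cells, and 27.9, 34.3 and 37.1 CPM in Dex cells at 24 h, against 21.4, 27.04 and 29.5 CPM in vehicle cells. The groups overlapped at 24 h only. The changes of Trim3 were 0.47 ± 0.07, 0.60 ± 0.07 and 0.34 ± 0.07 (edgeR adjusted p = 9.18e-07, 2.42e-09 and 4.52e-05). Trim32, a ligase mutated in a human limb-girdle muscular dystrophy, was called at 8 h only (-0.19 ± 0.07, edgeR adjusted p = 0.026), with 13.2 to 18.6 CPM in Dex cells and 15.8 to 19.3 CPM in vehicle cells. That call was lost in 5 of 12 fits without 1 library (-0.25 to -0.16).

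Of 6 members known from autophagy, membranes or damage repair, 1 fell at 2 h, 1 rose and 2 fell at 8 h, and 2 rose and 4 fell at 24 h. The shares of all genes called at these times were 14.5, 52.2 and 53.6% (8.14, 27.5 and 26.8% higher, 6.41, 24.7 and 26.8% lower). Trim16, which with galectin-3 marks ruptured lysosomes for autophagy (chromosome 11, 62820231 to 62850808), was low from the first time. It had 8.54, 9.16 and 13.0 CPM in Dex cells at 2 h, against 15.7, 21.7 and 24.9 CPM in vehicle cells, 9.06, 10.5 and 12.2 CPM in Dex cells at 8 h, against 16.8, 18.7 and 22.6 CPM in vehicle cells, and 7.15, 7.96 and 11.3 CPM in Dex cells at 24 h, against 14.3, 16.8 and 19.6 CPM in vehicle cells. No Dex library reached a vehicle library at any time. Trim16 changed by -1.09 ± 0.11 (2.13-fold lower), -0.85 ± 0.11 (1.80-fold lower) and -1.02 ± 0.12 (2.03-fold lower), with edgeR adjusted p of 1.7e-09, 7.78e-08 and 2.95e-09. Trim16 shares 237 exon bases with Fbxw10 on the same strand.

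Trim59, a membrane-anchored member linked to cell proliferation (chromosome 3, 69035288 to 69044755), changed with Dex at 24 h alone by the test. It had 24.9, 27.5 and 29.9 CPM in Dex cells at 2 h, against 23.2, 28.1 and 32.8 CPM in vehicle cells, and 27.5, 28.8 and 31.6 CPM in Dex cells at 8 h, against 27.7, 31.4 and 33.8 CPM in vehicle cells. At 24 h it had 5.14, 7.52 and 11.2 CPM in Dex cells, against 17.5, 21.8 and 28.4 CPM in vehicle cells, with no overlap. Its changes were -0.03 ± 0.10, -0.08 ± 0.10 and -1.49 ± 0.11 (edgeR adjusted p = 0.948, 0.561 and 1.62e-13), the last 2.81-fold lower. The 24 h effect was below the 8 h effect by a log2 difference of -1.42 ± 0.15 (edgeR adjusted p = 4.17e-09). Without the KO vehicle 24 h replicate 2 the 24 h change was -1.55. In vehicle over untreated cells Trim59 was called lower at 24 h, with overlap (17.5 to 28.4 CPM against 21.8 to 32.1 CPM). Trim37, which acts at peroxisomes and centrosomes (chromosome 11, 87127077 to 87220683), had 22.7, 24.1 and 30.4 CPM in Dex cells at 24 h, against 35.2, 39.1 and 42.7 CPM in vehicle cells, again with no overlap. It changed by 0.09 ± 0.06 at 2 h, -0.12 ± 0.06 at 8 h and -0.64 ± 0.06 at 24 h (edgeR adjusted p = 0.446, 0.1 and 2.04e-10). In vehicle over untreated cells Trim37 was called higher at 8 and 24 h, with overlap. It had 35.8 to 42.7 and 35.2 to 42.7 CPM in vehicle cells, against 31.5 to 38.8 CPM in untreated cells. These calls held in 9 and 11 of 12 fits without 1 library.

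The remaining members of that group moved little. Trim13, a ligase of the endoplasmic reticulum, was called lower at 8 h (-0.22) and 24 h (-0.32), with 5.79 to 9.25 CPM in Dex cells and 8.14 to 9.76 CPM in vehicle cells at 24 h. Trim23, which carries an ARF domain, was called higher at 8 h (0.26) and 24 h (0.15), and Trim27, which acts on endosomal sorting, at 24 h (0.12). The 8 h call of Trim13 was lost in 4 of 12 fits without 1 library (-0.26 to -0.19), and the 24 h calls of Trim23 and Trim27 in 7 and 6 of 12 (0.11 to 0.17 and 0.07 to 0.14) and in a fit of the compared libraries alone (edgeR adjusted p = 0.0833 and 0.141). The 24 h calls of Trim23 (0.12) and Trim27 (0.10) were among those lost without the KO vehicle 24 h replicate 2, together with Trim44 (-0.18) and Trim45 (-0.33). Of 19 core autophagy genes, 2 rose and 2 fell at 2 h, 6 rose and 6 fell at 8 h, and 10 rose and 3 fell at 24 h. The background called was 14.5, 52.2 and 53.6% (8.14, 27.5 and 26.8% higher, 6.41, 24.7 and 26.8% lower). The summed level of these autophagy genes was lower with Dex at 24 h. Its median was 6728 CPM in KO Dex and 9047 CPM in KO vehicle libraries, and 6586 CPM in WT Dex and 9447 CPM in WT vehicle libraries.

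At 24 h all 4 measured fibroblast and stroma markers (of 6 listed) also rose with Dex (background 26.8% higher). Their summed level was 23.5 to 59.2 CPM in KO Dex libraries and 8.51 to 20.7 CPM in KO vehicle libraries, and 12.2 to 62.5 CPM in WT Dex libraries and 6.31 to 23.1 CPM in WT vehicle libraries. Of the other cell types examined, Flt3, a dendritic cell marker, rose with Dex at 8 and 24 h (2 of 4 dendritic cell markers measured, summed level at most 6.26 CPM, Flt3 at 0 in 2 libraries), and the B cell marker Cd79b fell at 24 h. In vehicle over untreated cells, 2 of the 4 stroma markers rose at 24 h (background 15.6% higher). The part of these markers in the changes of TRIM genes was not tested.

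Trim36 was the 1 measured member of 7 with a COS box or a muscle role, and it binds microtubules (chromosome 18, 46165300 to 46212607). It had 6.11, 7.73 and 8.57 CPM in Dex cells at 2 h, against 10.2, 12.1 and 12.7 CPM in vehicle cells, 3.77, 5.68 and 6.83 CPM in Dex cells at 8 h, against 8.15, 9.88 and 11.1 CPM in vehicle cells, and 2.76, 5.76 and 7.41 CPM in Dex cells at 24 h, against 9.19, 9.73 and 11.9 CPM in vehicle cells. The groups were apart at each time. Its changes were -0.62 ± 0.14 (1.54-fold lower), -0.83 ± 0.14 (1.77-fold lower) and -0.89 ± 0.14 (1.85-fold lower), with edgeR adjusted p of 0.000965, 7.76e-06 and 3.02e-06.

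Of the TIF1 group, which represses transcription through chromatin, Trim24 rose at 8 h (15.8 to 19.5 CPM in Dex cells, 10.4 to 15.0 CPM in vehicle cells) and at 24 h (16.3 to 21.8 CPM in Dex cells, 12.1 to 15.4 CPM in vehicle cells). The groups did not overlap at either time, and the changes of Trim24 were 0.54 ± 0.08 and 0.51 ± 0.08 (edgeR adjusted p = 3.68e-07 and 1.28e-06). Trim28, the corepressor of KRAB zinc finger proteins, changed by -0.12 ± 0.05 at 8 h and -0.15 ± 0.05 at 24 h (edgeR adjusted p = 0.05 and 0.014), the smallest called change among members at 8 h. That 8 h call was lost in 7 of 12 fits without 1 library (-0.16 to -0.07) and in a fit of the compared libraries alone (edgeR adjusted p = 0.0615), and the 24 h call without the KO vehicle 24 h replicate 3 (-0.12). Trim33, which also regulates SMAD signalling, was called at no time (-0.05, -0.06 and -0.09). Of 9 partners of KRAB and TIF1 proteins, 3 rose and 2 fell at 8 h and at 24 h, near the background of 52.2 and 53.6% called.

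Of 11 members outside these groups, Trim11 rose most firmly. Trim11, which clears misfolded proteins (chromosome 11, 58978093 to 58991458), had 30.5, 33.8 and 36.8 CPM in Dex cells at 2 h, against 22.4, 24.0 and 24.5 CPM in vehicle cells, 35.3, 36.6 and 44.7 CPM in Dex cells at 8 h, against 18.2, 20.01 and 21.2 CPM in vehicle cells, and 27.4, 29.4 and 33.4 CPM in Dex cells at 24 h, against 18.4, 19.9 and 23.4 CPM in vehicle cells. The groups did not overlap at any time. Its changes were 0.51 ± 0.06, 0.96 ± 0.06 (1.94-fold) and 0.54 ± 0.06 (edgeR adjusted p = 7.97e-08, 9.78e-15 and 8.9e-09). Both steps were called, with 0.45 ± 0.09 between 2 and 8 h and -0.42 ± 0.09 between 8 and 24 h (edgeR adjusted p = 0.000179 and 0.000537). Trim7, a binder of glycogenin, had 2.31, 2.82 and 3.50 CPM in Dex cells at 8 h, against 1.27, 1.64 and 1.91 CPM in vehicle cells, with no overlap. Its changes were 0.46 ± 0.18, 0.82 ± 0.18 and -0.07 ± 0.19 (edgeR adjusted p = 0.0876, 0.000261 and 0.783), and Trim7 is the member with the lowest level per length.

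Trim35, the member with the highest level per length, rose early and fell later. It had 253, 317 and 333 CPM in Dex cells at 2 h, against 228, 254 and 273 CPM in vehicle cells, 166, 188 and 198 CPM in Dex cells at 8 h, against 201, 219 and 231 CPM in vehicle cells, and 165, 181 and 188 CPM in Dex cells at 24 h, against 197, 223 and 240 CPM in vehicle cells. The groups overlapped at 2 h and were apart at 8 and 24 h. The changes of Trim35 were 0.26 ± 0.06, -0.23 ± 0.06 and -0.31 ± 0.06 (edgeR adjusted p = 0.00139, 0.00174 and 5.43e-05), and the step of -0.49 ± 0.09 between 2 and 8 h was called (adjusted p = 2.91e-05). At 24 h Trim41 rose (9.09 to 12.6 CPM in Dex cells, 5.94 to 8.02 CPM in vehicle cells) and Trim39 rose (11.9 to 14.6 CPM in Dex cells, 8.31 to 11.8 CPM in vehicle cells), while Trim47 fell (31.4 to 36.6 CPM in Dex cells, 39.4 to 42.8 CPM in vehicle cells). Trim47 shares 225 exon bases with Trim65 on the same strand. Trim44, which lacks a RING finger, was at 56.7 to 65.04 CPM in Dex cells and 68.5 to 76.6 CPM in vehicle cells at 8 h. Trim8 and Trim45 were called lower at 24 h by small margins (-0.13 and -0.38, each called in 5 of 12 fits without 1 library, with ranges of -0.17 to -0.10 and -0.48 to -0.29, and lost in a fit of the compared libraries alone).

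**Figure D4:**
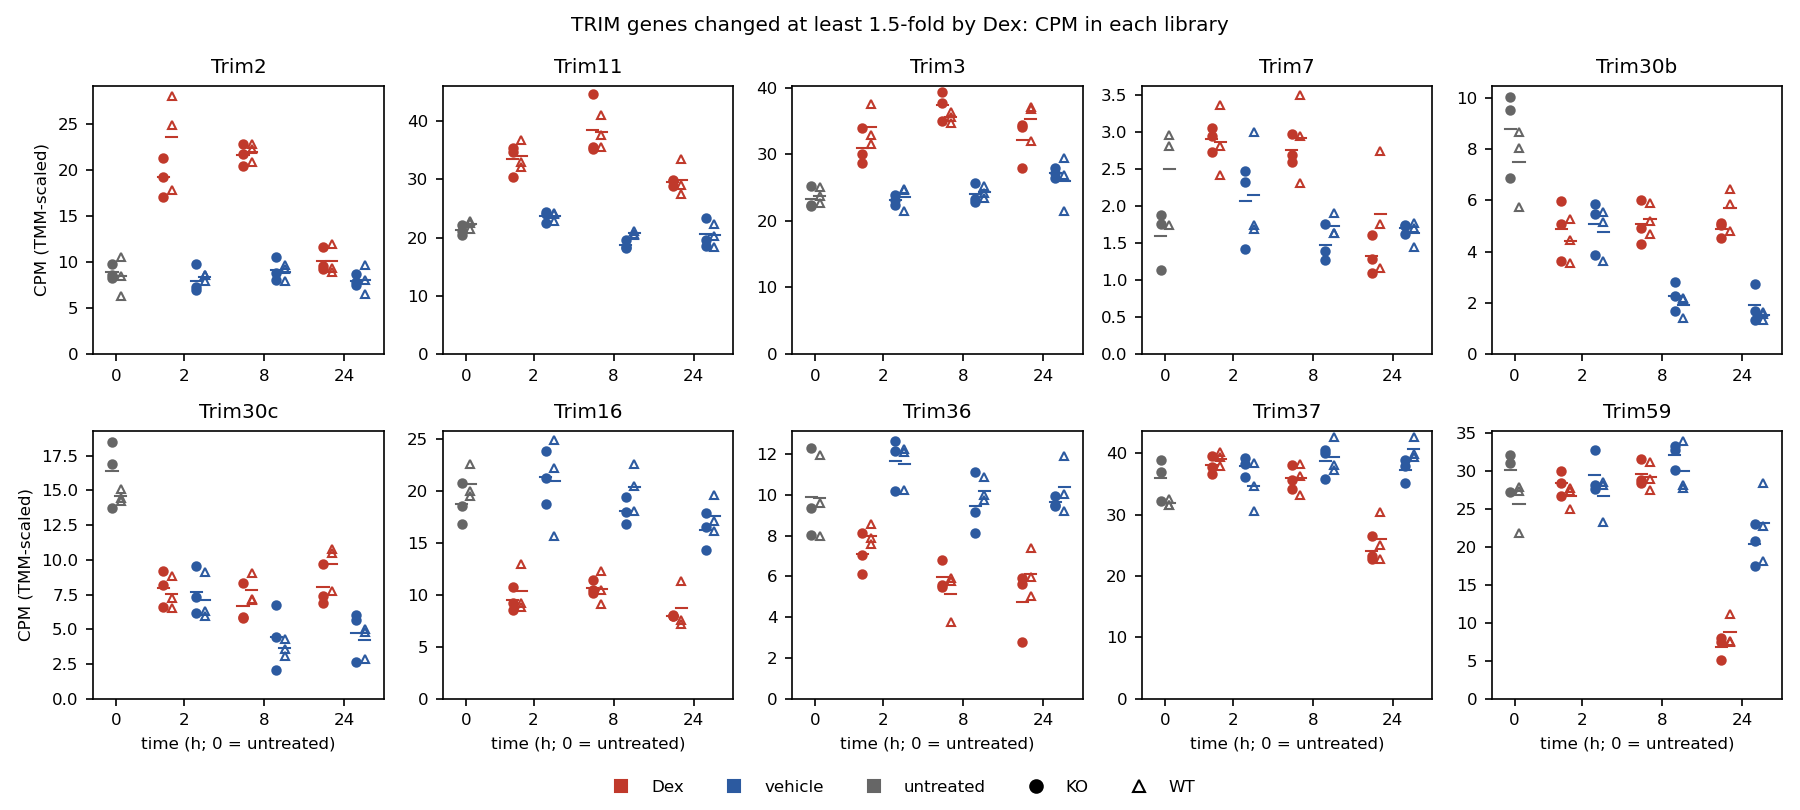
CPM per library of the 10 TRIM genes with a called Dex change of at least 1.5-fold, by time, with Dex left of vehicle and untreated cells at 0 h (circles KO, triangles WT, dashes group means). Trim2 is high with Dex at 2 and 8 h and near vehicle at 24 h, whereas Trim59 is near vehicle at 2 and 8 h and 5.14 to 11.2 CPM with Dex at 24 h.

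Without the KO vehicle 24 h replicate 2, the 24 h Dex changes were -1.08 for Trim16, -0.90 for Trim36, -0.67 for Trim37, -0.52 for Trim25, -0.34 for Trim35, 0.32 for Trim3, 0.48 for Trim24 and 0.58 for Trim11, all still called.

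Other genes of the pathway were counted in the same way. Of all genes tested, 14.5, 52.2 and 53.6% were called for Dex at 2, 8 and 24 h (8.14, 27.5 and 26.8% higher, 6.41, 24.7 and 26.8% lower). In vehicle over untreated cells these shares were 13.8, 18.2 and 31% (7.03, 8.49 and 15.6% higher, 6.72, 9.66 and 15.4% lower). The counts by list are a description. Of 17 ubiquitin E1 and E2 genes, 1 rose and 0 fell with Dex at 2 h, 2 rose and 8 fell at 8 h, and 2 rose and 3 fell at 24 h. Of 21 measured genes of nucleic acid and pattern sensing relays, 1 rose and 3 fell at 2 h, 3 rose and 5 fell at 8 h, and 5 rose and 6 fell at 24 h. In vehicle over untreated cells, 0 E1 and E2 genes rose and 2 fell at 2 h, 0 rose and 7 fell at 8 h, and 1 rose and 3 fell at 24 h. Sensing relays rose in 2, 1 and 2 cases and fell in 6, 8 and 9 at these times, while core autophagy genes rose in 3, 5 and 7 cases and fell in 0, 1 and 1. Of 6 measured TRIM relatives under other symbols (including Pml, the organiser of nuclear bodies, at -0.50, -0.997 and -0.80 in vehicle over untreated cells), 1 rose and 2 fell with Dex at 8 h, and 1 rose and 1 fell at 24 h. The glucocorticoid response element searched as GNACA, any 3 bases and TGTNC (its own reverse complement) was in 0 of the members' 40 windows, against 0.475% of all windows, and no match says only that these letters are not in these windows.

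No member was called between KO and WT cells. Averaged over the 4 conditions without Dex (12 KO and 12 WT libraries) 0 of 39 were called by edgeR's quasi-likelihood test (background 0.224%), with 3 at an unadjusted p under 0.05 and 0 called by DESeq2. Averaged over the 3 Dex times (9 KO and 9 WT libraries) 0 were called (background 0.0538%), with 2 at an unadjusted p under 0.05 and 0 by DESeq2. Within single conditions 0 members were called, against a background of 0.00896% with vehicle at 2 h and at 8 h (all lower), 0.0448% with Dex at 24 h (0.0358% higher and 0.00896% lower) and 0% in untreated cells, vehicle at 24 h and Dex at 2 and 8 h. For the Dex effect in KO cells minus that in WT cells, averaged over the times, 0 were called (background 0%), with 1 at an unadjusted p under 0.05 and 0 by DESeq2. A test that misses the threshold does not show that the genotypes are alike, so the sizes are given. The log2 differences without Dex ran from -0.32 for Trim41 to 0.23 for Trim30b, those with Dex from -0.23 for Trim45 to 0.11 for Trim6, and those of the Dex effect from -0.31 for Trim30c to 0.21 for Trim41. Within 0.2 of 0 lay 35, 38 and 34 of the 39 members in these comparisons. In KO cells alone Dex changed 8, 15 and 17 members at 2, 8 and 24 h (background 10.4, 38.5 and 38.3%), and in WT cells alone 7, 17 and 17 (background 9.02, 37 and 41.7%).

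The lowest p without Dex belonged to Trim41, a ligase first described as a binder of protein kinase C. It had 9.0003, 4.60 and 4.14 CPM in KO untreated libraries, against 8.36, 7.24 and 7.48 CPM in WT untreated libraries, and 4.48, 4.77 and 4.76 CPM in KO vehicle libraries at 2 h, against 8.96, 5.79 and 6.30 CPM in WT vehicle libraries. At 8 h it had 5.35, 5.39 and 4.15 CPM in KO vehicle libraries and 5.43, 5.08 and 5.398 CPM in WT vehicle libraries, and at 24 h 7.33, 7.07 and 5.94 CPM in KO vehicle libraries and 7.86, 8.02 and 8.01 CPM in WT vehicle libraries. The groups were apart at 2 and 24 h and overlapped in the others, and 1 KO untreated library was the highest of its condition. The difference was -0.32 ± 0.11 (edgeR adjusted p = 0.289), and without that library, KO untreated replicate 1, it was -0.43 (adjusted p = 0.029). With Dex the Trim41 difference was -0.09 ± 0.12. Trim41 overlaps exons of Rack1 on the opposite strand (31 bases), and the strand setting of the counting was not known.

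With Dex the lowest p belonged to Trim25. At 24 h it had 182, 146 and 167 CPM in KO Dex libraries, against 220, 191 and 194 CPM in WT Dex libraries, without overlap, whereas at 8 h it had 400, 328 and 314 CPM in KO Dex libraries and 380, 344 and 324 CPM in WT Dex libraries. Over the 3 times the difference was -0.16 ± 0.06 (edgeR adjusted p = 0.518). For the Dex effect the lowest p belonged to Trim24, whose changes at 2, 8 and 24 h were 0.06, 0.42 and 0.33 in KO cells, against 0.21, 0.66 and 0.69 in WT cells. The mean difference was -0.25 ± 0.09 (edgeR adjusted p = 0.746).

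**Figure D5:**
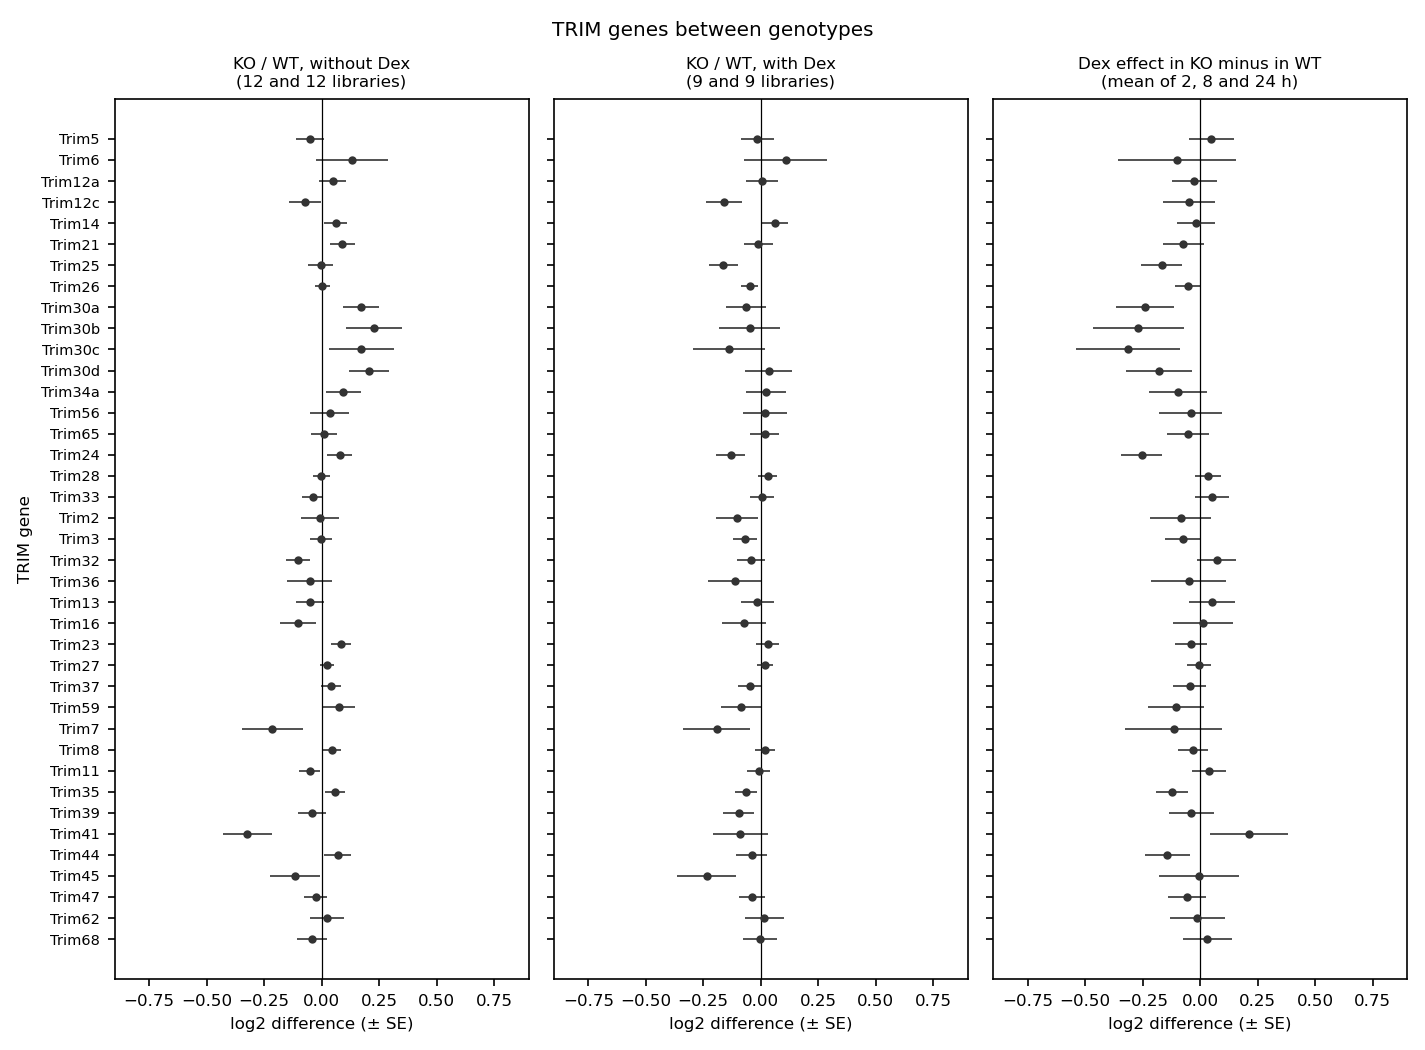
Log2 differences ± SE of the 39 TRIM genes between KO and WT cells: KO over WT without Dex (12 libraries each), KO over WT with Dex (9 libraries each), and the Dex effect in KO cells minus that in WT cells (mean of 3 times). Values lie between -0.32 and 0.23, and none was called.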

How the data were processed

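RNA from 42 libraries was sequenced with a SMART-Seq mRNA kit, per the labels' protocols. The deposited table holds expected counts by gene symbol, and GRCm38, Salmon, HISAT2 and fastp are the build and tools credited to the submitters' processing notes. Their versions, the annotation, the strand setting and the gene filter are not given. Of all deposited values 69.5% lie within 0.01 of a whole number, so part of the table is estimates and not whole reads; how reads of close copies were split was not tested.

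Expected counts were rounded and fitted in edgeR 4.0.16 (R 4.3.3) as 14 group means, with TMM scaling (factors 0.950 to 1.04), filterByExpr (0 genes removed), quasi-likelihood tests and Benjamini-Hochberg adjustment over 11160 genes. A gene was called at an adjusted p of at most 0.05. Samples were grouped by title. Levels are TMM-scaled CPM. Members and lists were chosen with earlier results of these data known. Named members are those with a called Dex change of at least 1.5-fold, the 4 of lowest p in each vehicle comparison and those of lowest p between genotypes. Trim35, Trim25 and Trim30a were named for the highest CPM per kb. Other members and the Trim30 ratio were added after their values were seen.

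Replicate numbers in the titles were checked for pairing, by correlating deviations from group means over genes. All correlations passed 0.1 for Dex against vehicle in KO cells at 2 and 8 h and in WT cells at 8 and 24 h, for vehicle against untreated in KO cells, and for KO against WT with vehicle and with Dex at 2 h, but not in the other comparisons. Replicates differed by more than counting noise (chi-square per degree of freedom 7.07 to 56.9 over 42 pairs), so none was counted as a duplicate. On simulated counts for Dex at 8 h (11160 genes), 88.1, 95.5 and 98.5% of genes changed 1.5-, 2- and 4-fold were recovered, and 13 of 10960 unchanged genes were called. Only 67, 67 and 66 genes were changed and libraries were drawn independently, whereas 52.2% of genes were called in the data. These rates therefore need not hold for the data. Alternatives were RLE scaling, no filter, a minimum mean of 5 CPM, a replicate block, the compared groups only, DESeq2 1.42.0, summed copies and leaving out each library. Promoter windows are RefSeq's and gene positions GENCODE's.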

Additional observations from a re-analysis of the deposited data

How the results depend on the processing

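Counts of called members stayed within 1.5 times of those reported under RLE scaling, no filter, a minimum mean of 5 CPM, the compared groups only, DESeq2 and a replicate block, for every comparison. With the replicate block 11, 26 and 26 members were called for Dex at 2, 8 and 24 h, 10 and 8 for the steps between times, 15, 16 and 22 for vehicle against untreated cells, and 0 in each KO comparison; the block moved no count by over 1.5 times and changed no call of a named member. Without 1 library at a time the Dex counts were 9 to 11, 17 to 24 and 20 to 23, those of the steps 8 to 10 and 7 to 8, and those of vehicle 12 to 15, 12 to 16 and 13 to 19. KO against WT without Dex gave 0 to 1, the 1 being Trim41 without the KO untreated replicate 1, and the other KO comparisons gave 0 to 0. The sign of small, uncalled changes reversed in 5 cases. Without 1 library at a time Trim30a with Dex ran from -0.00534 to 0.0931 at 2 h and from -0.237 to 0.00621 at 8 h. It was 0.0293 at 24 h when Trim30a to Trim30d were summed, and Trim12a with Dex was 0.00797 at 2 h and -0.0110 at 24 h when summed with Trim12c. Fitting the compared libraries alone lost 14 calls of single members. For single members 159 recomputed values lost the call and 2 gained it, and the cause was not tested. With 3 libraries a group, changes under about 1.5-fold and members with few counts are the least certain.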

Other observations

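Across the 14 group means, the genes outside the TRIM family whose level followed Trim30b most closely were Ifi204 (Pearson r = 0.94), Ifitm1 (0.93), P2ry14 (0.93), Mrpl30 (0.92) and Rnase6 (0.91), next to the neighbouring copy Trim30c at 0.94. The 14 points share libraries and depth between genes, so these values are a description.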
